A study of Canis lupus familiaris with 15 samples.

Results

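MDCK (Madin-Darby canine kidney) cells, a cell line long established from the kidney epithelium of a dog, were given hepatocyte growth factor (HGF) with or without a compound spelled PD09859 (PD), and the 4 arrays of the HGF + PD group were set against the 4 arrays of the HGF group. These 8 of the 15 arrays of the series were chosen by the sample titles. Cells of every group were kept for 7 days on Transwell filters, porous supports on which they form a polarised sheet, in MEM with fetal bovine serum. HGF was given at 100 ng/ml for 24 h in both groups compared, and PD at 50 uM. The labels do not say whether PD was added before HGF. The name was read as the MEK inhibitor PD98059, because MAPK inhibitors are named in the title of the series. The other arrays came from 4 cultures in medium alone (Control) and 3 cultures with HGF and 10 uM of a compound spelled UO126 (HGF + UO), and their levels are given for orientation. None of the 15 arrays was labelled as PD without HGF or as a vehicle, so PD and any vehicle given with it cannot be told apart. Each array is labelled a biological replicate, with no word on separate culture days, so p-values rest on the spread among these arrays alone, which may be technical.

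HGF is the ligand of MET, a receptor tyrosine kinase that passes its signal to RAS, RAF, MEK and ERK and, along other branches, to PI3K and its targets. Active ERK is known to raise immediate early transcription factors such as FOS and EGR1, the cyclin D1 gene, and phosphatases of the DUSP family that act back on ERK. In MDCK cells HGF is known to loosen cell contacts, scatter colonies and induce branching tubules, and MEK inhibitors are used to find which of these steps need ERK.

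Biotin-labelled targets made from total RNA were read on Affymetrix arrays for dog. Levels below are log2 of the deposited intensities, so a difference of 1 is a 2-fold difference. A change is the HGF + PD mean minus the HGF mean ± the standard error (SE) of a limma fit, and differences from Control also carry the SE. Beside the level of a single group, ± gives the standard deviation (SD) of its arrays. Of 42924 probe sets that are not controls, 24904 reached a level of 4 on at least 3 arrays and were tested, and 10287 genes with 1 symbol were represented by their brightest probe set. Adjusted p-values are Benjamini-Hochberg values over all 24904 probe sets, with a threshold of 0.05, and "rose" and "fell" are used of genes past it. Arrays of one group correlated at 0.9942 to 0.9972 and arrays of the 2 groups at 0.9412 to 0.9489 over these probe sets. All 10 markers of kidney tubule epithelium were measured, and their summed intensity was 84220 to 101019 on the HGF arrays and 80452 to 100832 on the HGF + PD arrays (two-sided exact permutation p = 0.657). On the Control arrays that sum was 113151 to 122228. Single markers moved both ways under the sum: 3 of the 10 rose and 4 fell, from -2.04 (CLDN4) to 1.47 (CDH16). Of all genes 29.9% rose and 25.8% fell. COL1A1, COL1A2, DCN and LUM of the 8 fibroblast markers, TEK, VWF, EMCN and CLDN5 of the 8 endothelial ones and PTPRC, LYZ and ITGAM of the leukocyte ones lay below the filter level on all 8 arrays. The summed leukocyte list was 22692 to 27648 with HGF and 36780 to 42352 with PD, an exact permutation p of 0.0286 (0.0571 adjusted), and followed CD74, the invariant chain of MHC class II (14.64 ± 0.13 and 15.25 ± 0.08, SD), which cultures in medium alone also held at 15.51. CD68, a lysosomal protein of macrophages, went the other way, with 6.99, 4.91, 5.11 and 8.12 with HGF and 3.22, 3.00, 3.16 and 3.08 with PD, and CD3E and CD14 did not pass, except CD14 as a fall without HGF replicate 4 (-0.34). All 8 fibroblast markers, those below the filter included, summed to 290 to 309 with HGF and 266 to 279 with PD (exact permutation p = 0.0286, 0.0571 adjusted). The 4 measured were dim as well, and THY1 fell by 0.34 ± 0.09 among them. The part of these markers in the results below was not tested. On the log2 scale, the 3'/5' ratio of the beta-actin control probe sets, a measure of RNA integrity, was 1.38 to 1.56 with HGF, 2.08 to 2.23 with PD and 2.17 to 2.29 in Control. That difference of 0.653 gave an exact permutation p of 0.0286, the lowest possible with 4 and 4 arrays (0.0571 after adjustment for 8 measures of the arrays), and its part in the results below was not tested. The same ratio of GAPDH was 1.95 ± 0.03 and 1.98 ± 0.07 (SD, exact permutation p = 0.4). In extracts of whole cultures, fewer cells of a kind and less RNA per cell cannot be told apart.

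PD changed a large part of what the arrays measured. In all 13798 probe sets passed, which is 55.4% of those tested, 7549 higher and 6249 lower with PD. Of the genes, 29.9% were higher and 25.8% lower, 6.96% were higher by at least 1 and 6.23% lower by at least 1, and in 56.4% the 4 HGF and 4 HGF + PD arrays did not overlap. Every count of list members below for HGF + PD against HGF is to be read against these shares, and the median change over all genes was -0.02. With arrays centred on their medians the split turned to 6403 higher and 7890 lower, so the balance of rises and falls rests on the scaling, and changes under 0.1 have no settled direction. Of the genes past the threshold, 137 of 5728 had a mean below the filter level of 4 in at least 1 of the 2 groups, where GCRMA compresses values, so their folds depend on the background estimate.

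**Figure D1:**
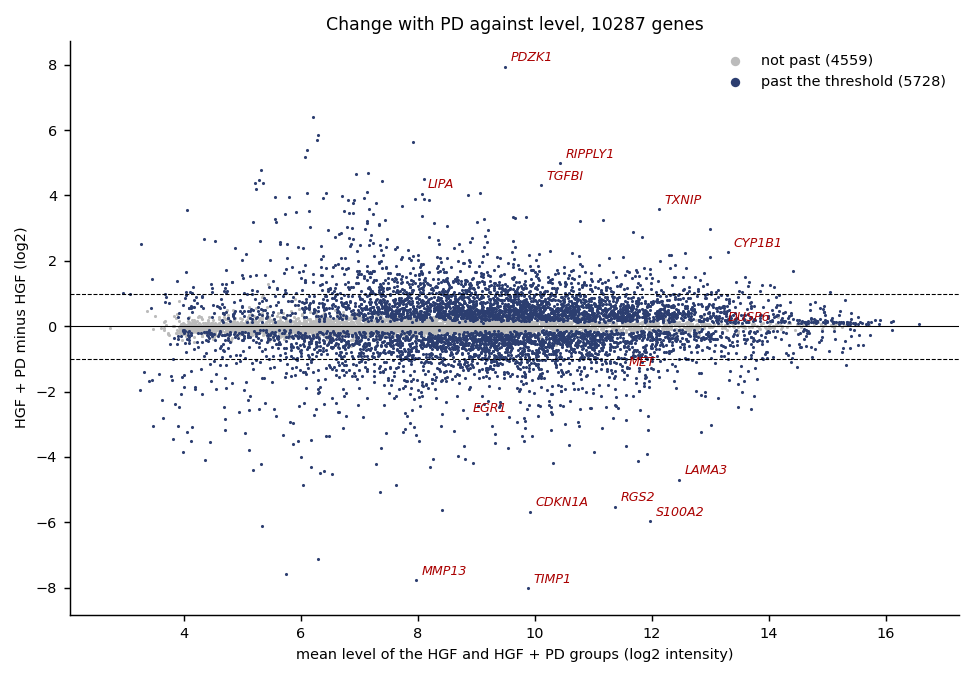
Change of each of the 10287 genes on the log2 scale (HGF + PD minus HGF, vertical axis) against its mean level over the 8 arrays (log2 intensity, horizontal axis); dark points passed the threshold and the dashed lines mark changes of 1. The cloud centres on 0, and PDZK1, TGFBI and LIPA stand above it and TIMP1, S100A2 and CDKN1A below it.

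**Figure D2:**
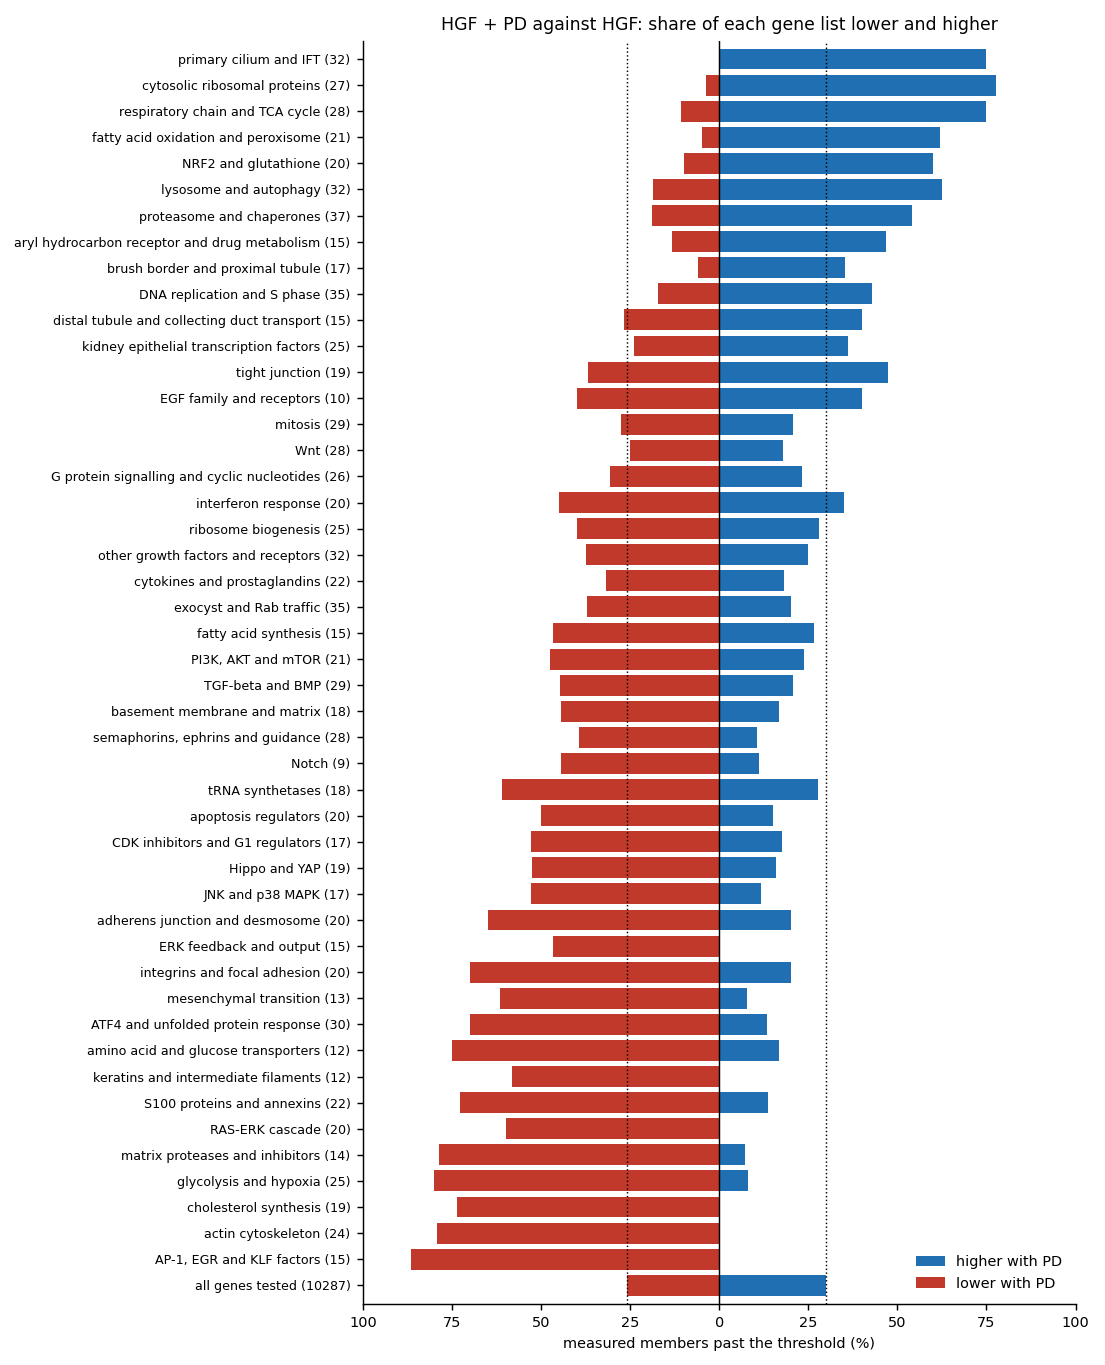
Share of measured members higher (right) and lower (left) with PD, in percent, for 47 gene lists and for all genes, at adjusted p under 0.05, with the number of measured members beside each name. The dotted lines mark the shares over all genes, 29.9% higher and 25.8% lower; the cilium list reaches 75% higher and the AP-1, EGR and KLF list 86.7% lower.

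The rule for large changes took genes with a mean of at least 6 in the lower group. S100A2, a calcium-binding protein of epithelia, read 14.96, 14.96, 14.88 and 15.02 on the HGF arrays and 8.98, 8.90, 8.93 and 9.19 on the HGF + PD arrays. All 4 HGF arrays lay more than 5 units above all 4 arrays with PD, a fall of 5.96 ± 0.07 or 62.1-fold (adjusted p = 2.30e-16). RGS2, a GTPase-activating protein that shuts off G protein signals, read 14.10, 14.13, 14.13 and 14.20 on the HGF arrays and 8.68, 8.48, 8.56 and 8.73 on the HGF + PD arrays. Its groups lay as far apart, with a fall of 5.53 ± 0.10 (46.1-fold, adjusted p = 2.82e-14), and the Control level was 8.42. TNS4, a tensin that links integrins to the cell interior, read 10.80, 10.98, 11.21 and 11.18 with HGF and 6.90, 7.04, 7.00 and 6.48 with PD, below its Control level of 8.72, and fell by 4.19 ± 0.18. Others of this group were the phospholipid transporter ABCB4 (-4.31 ± 0.09), the intestinal-type cadherin CDH17 (-4.19 ± 0.08), the Rab exchange factor DENND2C (-4.05 ± 0.11), the cytokine signalling inhibitor SOCS2 (-3.97 ± 0.14), the repressor SNAI2 (-3.90 ± 0.18), the protease inhibitor SERPINE2 (-3.86 ± 0.11) and a gene listed as LOC491922 (-4.06 ± 0.26). SNAI2 and SERPINE2 kept a part of their HGF level, at 9.96 ± 0.09 and 9.08 ± 0.07 (SD) with PD against 8.04 and 7.20 in Control.

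The widest rises included a secreted matrix protein and a lysosomal enzyme that ended above both other levels. TGFBI, a matrix protein that binds collagen and integrins, read 7.70, 8.06, 7.95 and 8.11 on the HGF arrays and 12.07, 12.58, 12.23 and 12.17 on the HGF + PD arrays. The arrays with PD were the high ones without overlap, a rise of 4.31 ± 0.15 or 19.8-fold (adjusted p = 9.27e-12), and also lay above the Control level of 9.35 ± 0.31. LIPA, the acid lipase that splits cholesterol esters in lysosomes, read 5.96, 5.92, 5.81 and 6.50 on the HGF arrays and 10.07, 10.27, 9.94 and 10.15 on the HGF + PD arrays. It rose by 4.06 ± 0.14 (16.6-fold, adjusted p = 1.20e-11), from below to above its Control level of 7.90 ± 0.22. Larger still was the rise of RIPPLY1, a transcriptional co-repressor of somite patterning, from 7.95 ± 0.57 to 12.92 ± 0.15 (SD), which is close to the Control mean of 12.91. TXNIP, the thioredoxin-binding protein that restrains glucose uptake, read 10.02, 10.35, 10.74 and 10.25 with HGF and 13.84, 13.88, 14.06 and 13.89 with PD, and rose by 3.58 ± 0.11 (adjusted p = 3.97e-12). EFCAB10, RANBP3L, STEAP1, OSCP1, GALNT12, EFEMP1, RCAN1 and OLFML2B rose by between 3.32 ± 0.26 and 4.08 ± 0.21. Of these, the metalloreductase STEAP1 (8.61 in Control, 6.16 with HGF, 10.06 with PD), the glycosyltransferase GALNT12 (8.57, 6.39, 9.76), the matrix glycoprotein EFEMP1 (10.80, 8.17, 11.51) and the calcineurin inhibitor RCAN1 (10.56, 7.96, 11.30) were above Control past the threshold.

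**Figure D3:**
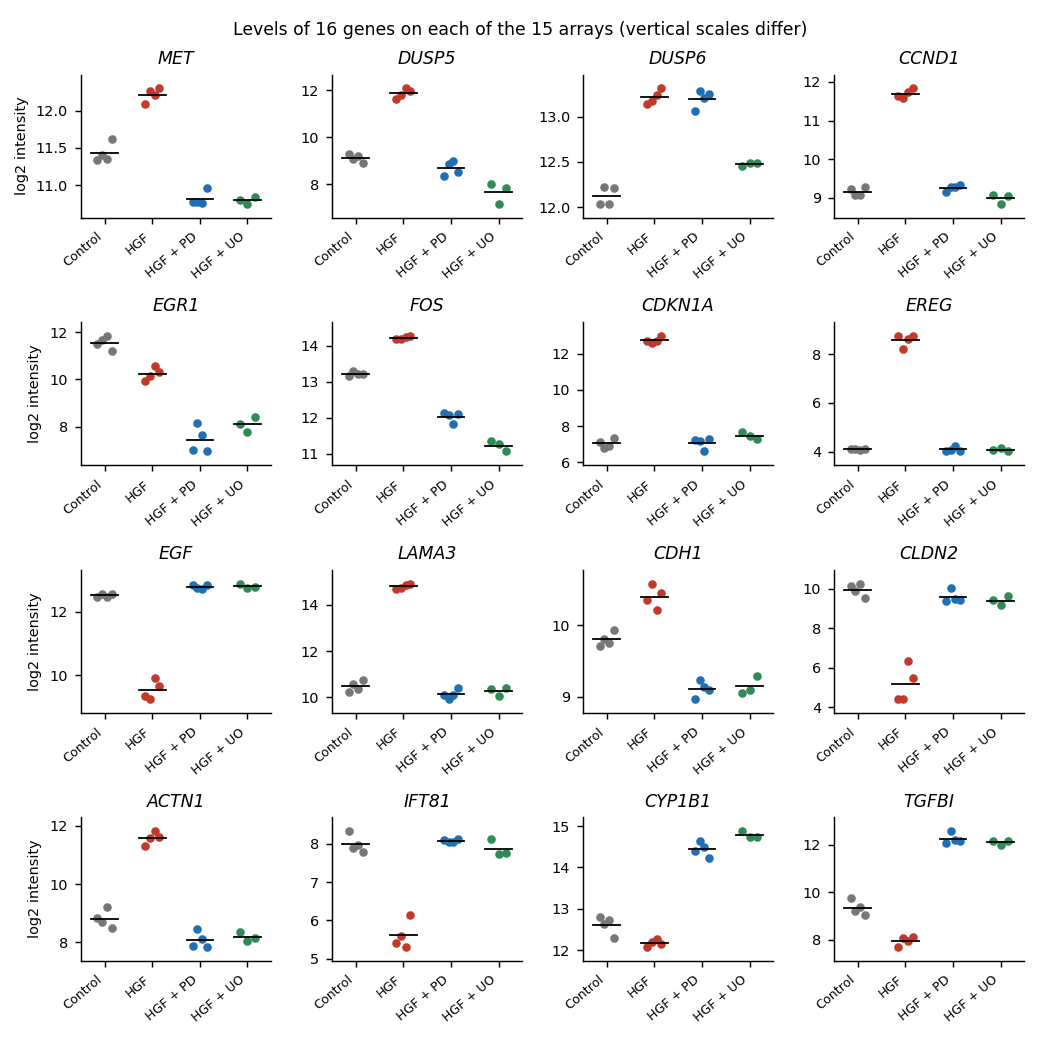
Log2 intensity of 16 genes on each of the 15 arrays, with Control, HGF, HGF + PD and HGF + UO in separate columns; points are arrays and short bars are group means. The HGF and HGF + PD points do not overlap in any panel but that of DUSP6, whose 4 HGF and 4 HGF + PD points lie together near 13.2.

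Components of the cascade that PD is read to block were lower rather than higher. Of 20 measured members 12 fell and 0 rose, with a median of -0.50. MET, the HGF receptor, read 12.09, 12.26, 12.21 and 12.30 on the HGF arrays and 10.78, 10.77, 10.76 and 10.96 on the HGF + PD arrays. Every array with PD lay below every HGF array, a fall of 1.39 ± 0.07 (2.63-fold, adjusted p = 3.51e-10), and below the Control mean of 11.43. ELK3, an ETS factor that ERK phosphorylates, read 11.43, 11.30, 11.38 and 11.47 with HGF and 9.09, 9.16, 9.07 and 9.11 with PD, and fell by 2.29 ± 0.05. BRAF changed by -1.18 ± 0.16, the RAS protein HRAS by -0.95 ± 0.19 and the adaptor GRB2 by -0.95 ± 0.17. MAP2K1, which encodes MEK1, fell by 0.48 ± 0.04 (-0.18 on 1 of 2 other probe sets, not past the threshold), while MAP2K2 (MEK2) read 7.74, 7.75, 7.97 and 7.76 on the HGF arrays and 7.58, 7.99, 7.73 and 7.56 on the HGF + PD arrays. Those arrays overlapped (-0.09 ± 0.12, adjusted p = 0.54, 95% interval -0.35 to 0.17). The adaptor GAB1 (0.12 ± 0.15) and the exchange factor SOS1 (0.05 ± 0.06, with 0.52 on 1 of 2 other probe sets, past the threshold) did not pass on these probe sets. The ERK genes themselves had no annotated probe set.

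Genes driven by ERK were lower in part. Of 15 feedback and output genes 7 fell and 0 rose (median -0.27). DUSP5, a nuclear phosphatase of ERK, read 11.64, 11.78, 12.07 and 11.96 on the HGF arrays and 8.37, 8.84, 8.99 and 8.54 on the HGF + PD arrays. The groups did not overlap, and the fall was 3.18 ± 0.18 or 9.05-fold (adjusted p = 1.45e-09). DUSP6, the cytoplasmic phosphatase of ERK, read 13.14, 13.17, 13.24 and 13.31 on the HGF arrays and 13.07, 13.29, 13.20 and 13.25 on the HGF + PD arrays. Here the groups overlapped, with a difference of -0.01 ± 0.06 (adjusted p = 0.852, 95% interval -0.14 to 0.11), at a level 1.07 ± 0.06 above Control; a second probe set read -0.24, past the threshold. The HGF + UO arrays read 12.45, 12.49 and 12.49 for DUSP6, at another dose and of another compound. CCND1, cyclin D1, read 11.62, 11.58, 11.75 and 11.83 with HGF and 9.16, 9.27, 9.27 and 9.32 with PD and fell by 2.44 ± 0.07 (5.42-fold). The ephrin receptor EPHA2 (-2.68 ± 0.10), the stress gene IER3 (-1.21 ± 0.11), PHLDA1 (-1.31 ± 0.13) and MYC (-0.97 ± 0.11) fell as well. ETV4, SPRED1 and ETV5, an ETS factor, an inhibitor of RAF activation and a further ETS factor, differed by -0.27 ± 0.26, -0.24 ± 0.13 and 0.07 ± 0.07 and did not pass, except that SPRED1 passed as a fall with quantile normalization (-0.32) and median centring (-0.33).

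Immediate early factors were lower with PD, and part of them ended below the level of untreated cells. Of 15 measured AP-1, EGR and KLF genes 13 fell and 0 rose, 8 by at least 1, with a median of -1.29. EGR1, a zinc finger factor, read 9.93, 10.13, 10.55 and 10.32 on the HGF arrays and 7.02, 8.15, 7.64 and 6.96 on the HGF + PD arrays, and 11.50, 11.66, 11.83 and 11.18 on the Control arrays. It was highest in Control, lower with HGF and lowest with PD, 2.79 ± 0.24 below HGF (adjusted p = 1.80e-07) and 4.10 ± 0.24 below Control (adjusted p = 2.31e-08). FOS, an AP-1 subunit, read 14.19, 14.20, 14.23 and 14.27 on the HGF arrays and 12.13, 12.07, 11.82 and 12.11 on the HGF + PD arrays. It fell by 2.19 ± 0.07 (4.55-fold, adjusted p = 4.30e-12), to 1.19 ± 0.07 below Control. The early response gene IER2 also ended below Control, with 11.77 in Control, 11.92 with HGF and 10.55 with PD. KLF6 fell by 3.07 ± 0.10, KLF10 by 2.74 ± 0.18 and JUNB by 1.71 ± 0.11. FOSL1 lay at 2.25 with PD, under the filter level, so its change of -2.80 ± 0.52 depends on how the background was estimated. For HGF + PD against Control, which shares the HGF + PD arrays with the main comparison, 21.8% of all genes were higher and 13.5% lower.

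Related kinase pathways moved in parts. In the JNK and p38 list 9 of 17 fell and 2 rose, and the widest fall was that of MAP3K5, the stress kinase ASK1 (-3.10 ± 0.23). DUSP1 and DUSP10, phosphatases of p38 and JNK, fell by 2.29 ± 0.07 and 2.21 ± 0.07. In the PI3K, AKT and mTOR list 10 of 21 fell and 5 rose. The catalytic subunit PIK3CA (-1.47 ± 0.10), the translation repressor EIF4EBP1 (-2.16 ± 0.08) and the mTORC1 inhibitor DDIT4 (-2.82 ± 0.25) were lower. DEPTOR, which binds and inhibits mTOR, read 4.21, 5.12, 5.28 and 4.67 with HGF and 9.55, 9.47, 9.59 and 9.34 with PD. All arrays with PD lay above all HGF arrays, by 4.67 ± 0.20 (25.5-fold, adjusted p = 8.90e-11). Its HGF arrays lay near the filter level, so the fold depends on the background estimate.

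Among both the ligands and the receptors of the EGF family, some genes rose and others fell. Of 10 measured members 4 rose and 4 fell. EREG, the ligand epiregulin, read 8.74, 8.23, 8.63 and 8.75 on the HGF arrays and 4.02, 4.08, 4.23 and 4.03 on the HGF + PD arrays. With PD it lay at the filter level on every array, as in Control (4.10), a fall of 4.50 ± 0.09 (adjusted p = 7.90e-14) whose size depends on the background estimate. HBEGF, another ligand of EGFR, also ended near that level (6.57 with HGF, 4.21 with PD). EGFR itself read 12.15, 12.22, 12.20 and 12.19 with HGF and 10.09, 10.01, 9.98 and 10.17 with PD, and fell by 2.13 ± 0.07 (4.38-fold). ERRFI1, an inhibitor that binds EGFR, fell by 3.03 ± 0.13. In contrast EGF, the founding ligand, read 9.36, 9.24, 9.89 and 9.64 on the HGF arrays and 12.84, 12.74, 12.71 and 12.83 on the HGF + PD arrays, a rise of 3.25 ± 0.11 or 9.49-fold (adjusted p = 5.97e-12) back to near its Control level of 12.52. NRG1, the ligand of ERBB3, rose by 1.51 ± 0.19 to 9.42 ± 0.34, above both HGF (7.91) and Control (7.10). The receptors ERBB2 and ERBB3 rose by 0.63 ± 0.11 and 0.64 ± 0.14. TGFA read -0.19 ± 0.11 and did not pass (adjusted p = 0.163).

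Other secreted factors also moved both ways, as did genes at large, of which 29.9% rose and 25.8% fell. KITLG, the ligand of the KIT receptor, read 4.80, 4.19, 5.88 and 5.60 on the HGF arrays and 8.82, 9.04, 9.22 and 9.14 on the HGF + PD arrays. It was higher on every array with PD, by 3.93 ± 0.31 (15.3-fold, adjusted p = 5.13e-08), and above the Control mean of 6.43 ± 0.42. Part of its HGF arrays lay near the filter level, so the fold depends on the background estimate. PDGFC rose by 2.94 ± 0.35, while FGF1 fell by 2.73 ± 0.21 and VEGFA by 1.58 ± 0.12. BMP2, a bone morphogenetic protein, averaged 11.11 ± 0.08 (SD) with HGF and read 8.84, 8.73, 8.55 and 8.72 with PD, a fall of 2.40 ± 0.10. INHBA, a subunit of activin, fell by 3.55 ± 0.04 to a level of 2.67, below the filter. WNT7A fell by 1.27 ± 0.20, and JAG1, a Notch ligand, by 1.69 ± 0.14. Over the growth factor list 8 of 32 rose and 12 fell, over TGF-beta and BMP 6 of 29 rose and 13 fell, over Wnt 5 and 7 of 28 (11 falls with quantile normalization or median centring, 3 rises where most probe sets of a gene had to pass), and over Notch 1 and 4 of 9. DKK3, a secreted protein of the Dickkopf family, read 5.66, 6.06, 5.69 and 6.40 with HGF and 8.48, 8.28, 8.83 and 8.44 with PD, with 5.16, 5.16 and 4.75 on the HGF + UO arrays at the other dose. It rose by 2.56 ± 0.19, but a second DKK3 probe set did not pass (0.10).

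Matrix proteases and their inhibitors fell. In the list of matrix proteases and inhibitors 11 of 14 fell, 8 by at least 1, and 1 rose, ADAM10 (0.13 ± 0.04), which did not pass in 5 alternatives, among them those without HGF replicate 4 (0.11) or HGF + PD replicate 1 (0.08). TIMP1, an inhibitor of matrix metalloproteinases, read 13.82, 13.93, 13.80 and 14.03 on the HGF arrays and 5.74, 5.81, 5.94 and 5.99 on the HGF + PD arrays, which is the widest fall of any gene with a symbol. PLAT, tissue plasminogen activator, fell by 3.15 ± 0.17 and PLAU, urokinase, by 1.09 ± 0.15. The collagenase MMP13 read 4.11, 4.13, 4.12 and 4.00 with PD and thus near the filter level of 4. FGFBP1, a carrier of fibroblast growth factors, read 9.82, 9.90, 9.88 and 9.90 with HGF and averaged 8.60 ± 0.38 (SD) with PD. It fell by 1.27 ± 0.29 (adjusted p = 0.00159) and stayed far above its Control level of 3.58. PTGS2, the inducible cyclooxygenase, also stayed above Control (6.07), with 12.37, 12.17, 12.39 and 12.68 with HGF and 9.03, 8.38, 8.60 and 9.06 with PD, a fall of 3.63 ± 0.21 (adjusted p = 2.20e-09).

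Part of the genes that attach the cells to the basement membrane fell. Hemidesmosomes tie keratin filaments to a laminin that holds the LAMA3 and LAMB3 chains, through the integrin formed by ITGA6 and ITGB4, the collagen COL17A1 and the linker PLEC. All 6 measured genes of this set, which was drawn up after the values were seen, fell by at least 1 (median -2.97). LAMA3, the laminin chain that defines this isoform, read 14.71, 14.76, 14.86 and 14.93 on the HGF arrays and 10.07, 9.92, 10.07 and 10.41 on the HGF + PD arrays. The arrays with PD were low without overlap, by 4.69 ± 0.12 or 25.9-fold (adjusted p = 7.42e-13). LAMB3, its partner chain, read 12.62, 12.76, 12.75 and 12.84 with HGF and 9.76, 10.00, 9.98 and 9.97 with PD and fell by 2.81 ± 0.08, to 1.06 ± 0.08 below Control. COL17A1 fell by 3.13 ± 0.09, ITGB4 by 1.62 ± 0.09, ITGA6 by 4.14 ± 0.07 (-0.19 on 1 of 3 other probe sets, not past the threshold) and PLEC by 2.37 ± 0.18 (-0.05 on another probe set, not past the threshold). The chains LAMB1 and LAMC1 of other laminins rose by 0.60 ± 0.06 (0.04 on 1 of 5 other probe sets, not past the threshold) and 0.54 ± 0.10 (0.09 on 1 of 2 other probe sets, not past the threshold), and NTN4, a laminin-related netrin, by 3.92 ± 0.13. Over the whole basement membrane list 8 of 18 fell and 3 rose, with a median of -0.16, and 5 fell when a gene was called only where most of its probe sets passed.

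Of the integrins and focal adhesion genes, falls were seen in 14 of 20 and rises in 4 (median -0.92). ITGA3, a laminin receptor subunit, fell by 2.43 ± 0.13 and ITGA2, a collagen receptor subunit, by 2.00 ± 0.08. ITGB6, which pairs with ITGAV and activates latent TGF-beta, read 12.18, 12.38, 12.37 and 12.38 on the HGF arrays and 10.38, 10.49, 10.25 and 10.52 on the HGF + PD arrays, against 12.48, 12.53, 12.63 and 12.47 in Control. HGF arrays lay just below the Control arrays, without overlap. Those with PD were far lower, by 1.92 ± 0.07 against HGF and by 2.11 ± 0.07 against Control (-0.05 on 1 of 2 other probe sets, not past the threshold). VCL, vinculin, fell by 2.14 ± 0.37 and ZYX, zyxin, by 1.84 ± 0.24. The rises included those of ITGA1 (0.86 ± 0.11), ITGB8 (0.84 ± 0.14) and ITGB5 (0.63 ± 0.07, with 0.35 on 1 of 3 other probe sets, not past the threshold).

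Contacts between cells also changed, with falls in desmosomes and rises in part of the tight junction. In the adherens junction and desmosome list 13 of 20 fell and 4 rose (median -1.06). CDH1, E-cadherin, read 10.35, 10.58, 10.22 and 10.45 on the HGF arrays and 8.97, 9.24, 9.14 and 9.09 on the HGF + PD arrays. It fell by 1.29 ± 0.09 (adjusted p = 9.14e-09) without overlap, to 0.69 ± 0.09 below Control, and CTNND1, p120 catenin, fell by 1.70 ± 0.26. The desmosomal cadherins DSC2 and DSG2 fell by 1.98 ± 0.09 and 1.80 ± 0.07, the plaque proteins DSP, JUP and PPL by 1.23 ± 0.10, 1.35 ± 0.16 and 2.44 ± 0.07. DSG3, present with HGF at 9.54 ± 0.18, lay below the filter on every array with PD (1.96, 1.97, 1.93 and 1.97). CDH16, the kidney-specific cadherin, rose by 1.47 ± 0.19 (-0.69 on 1 of 2 other probe sets, past the threshold) but stayed below Control (10.77 in Control, 9.24 with PD).

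Of 19 tight junction genes 9 rose and 7 fell. CLDN2, the claudin that forms cation pores in leaky epithelia, read 4.43, 4.42, 6.36 and 5.48 on the HGF arrays and 9.41, 10.05, 9.51 and 9.45 on the HGF + PD arrays. It rose by 4.43 ± 0.35 or 21.6-fold (adjusted p = 5.92e-08) without overlap. Part of its HGF arrays lay near the filter level, so the fold depends on the background estimate. CLDN4, a claudin of the distal nephron, moved the other way, with 11.97, 11.98, 12.05 and 12.03 with HGF and 10.08, 9.98, 9.79 and 10.02 with PD, a fall of 2.04 ± 0.07 to below Control (10.96). CLDN3 and CLDN7 fell by 0.66 ± 0.11 and 0.63 ± 0.10. The membrane proteins OCLN (occludin), MARVELD2 (tricellulin) and F11R (JAM-A) rose by 0.54 ± 0.06, 0.93 ± 0.12 and 1.17 ± 0.10. CLDN10, listed at 3.18 in Control and 3.15 with HGF, both below the filter, read 7.29, 6.85, 7.52 and 7.70 with PD, but 2 other probe sets of the gene did not pass.

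Genes of the actin cytoskeleton fell together. Of 24 measured members 19 fell and 0 rose, 10 by at least 1, with a median of -0.86. ACTN1, which cross-links actin filaments at adhesions, read 11.31, 11.57, 11.81 and 11.61 on the HGF arrays and 7.86, 8.44, 8.12 and 7.85 on the HGF + PD arrays. The groups did not overlap, and the fall was 3.51 ± 0.16 (11.4-fold, adjusted p = 2.11e-10). CAPG, a filament capping protein, averaged 14.96 ± 0.07 (SD) with HGF and read 12.30, 12.49, 12.49 and 12.40 with PD, and fell by 2.54 ± 0.06. FLNA, filamin A, fell by 2.10 ± 0.13, MYH9, the heavy chain of non-muscle myosin, by 1.53 ± 0.10 and ACTG1, gamma-actin, by 0.67 ± 0.06. EZR, ezrin of the microvilli, differed by -0.01 ± 0.03 on its brightest probe set (-0.61 on 1 of 2 other probe sets, past the threshold). Keratin and intermediate filament genes fell in 7 of 12 and rose in 0. The actin 3'/5' control ratio given above moved in the same arrays, and its part in these falls was not tested.

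Genes of the primary cilium were higher with PD. The primary cilium is a single antenna on the apical face of kidney epithelium, built by intraflagellar transport (IFT) trains that kinesin carries outward and dynein carries back. Of 32 measured members 24 rose and 0 fell, and 18 rose by at least 1, with a median of 1.12. The 8 others did not pass.

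Among the IFT proteins 12 of 14 rose. IFT81, which binds tubulin as cargo, read 5.41, 5.58, 5.31 and 6.14 on the HGF arrays and 8.09, 8.03, 8.06 and 8.12 on the HGF + PD arrays. All arrays with PD were higher, by 2.46 ± 0.16 or 5.51-fold (adjusted p = 8.17e-09), and lay close to the Control level of 7.99 ± 0.24. IFT57 read 9.72, 9.73, 9.88 and 9.83 on the HGF arrays and 11.52, 11.42, 11.58 and 11.50 on the HGF + PD arrays, a rise of 1.72 ± 0.05 (adjusted p = 1.22e-12) to above its Control level of 11.07 ± 0.02. IFT88, the subunit lost in a classic mouse model of cystic kidney, read 9.47, 9.17, 9.02 and 9.39 with HGF and 10.77, 10.37, 10.23 and 10.39 with PD, and rose by 1.18 ± 0.12. The outward train also held IFT46 (1.81 ± 0.11), IFT52 (1.06 ± 0.08), IFT74 (0.82 ± 0.05, with 0.18 on 1 of 2 other probe sets, not past the threshold), IFT80 (1.12 ± 0.07) and IFT172 (1.15 ± 0.11). Of the return train, IFT140 rose by 1.21 ± 0.10, IFT43 by 1.12 ± 0.10 (-0.18 on 1 of 2 other probe sets, not past the threshold) and IFT122 by 1.69 ± 0.13 (-0.05 on another probe set, not past the threshold). IFT20 and IFT27 differed by 0.19 ± 0.11 and 0.13 ± 0.06 and did not pass on their brightest probe sets, though both other IFT27 sets were past it (0.46 and 1.21) and IFT20 passed without HGF + PD replicate 2 (0.31).

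The motors, the BBSome and the ciliary gate followed in part. DYNC2H1, the heavy chain of the return dynein, read 5.53, 6.39, 6.30 and 6.51 on the HGF arrays and 8.22, 8.20, 8.22 and 8.63 on the HGF + PD arrays. It rose by 2.14 ± 0.18 (4.39-fold, adjusted p = 1.42e-07), and its light intermediate chain DYNC2LI1 by 2.03 ± 0.06. The kinesin subunit KIF3B did not pass (-0.19 ± 0.09, adjusted p = 0.0957), but did as a fall with quantile normalization (-0.24) and median centring (-0.27). Of the BBSome, which carries membrane receptors in the cilium, and its recruiter ARL6, 6 of 7 rose, led by BBS9 (1.32 ± 0.12) and TTC8 (1.29 ± 0.11). RPGRIP1L, a protein of the transition zone at the base of the cilium, read 5.71, 5.28, 5.57 and 5.47 on the HGF arrays and 8.93, 8.77, 8.96 and 9.12 on the HGF + PD arrays. It was the widest rise of the list, 3.44 ± 0.10 or 10.8-fold (adjusted p = 1.86e-12), and ended above Control (8.31). The transition zone proteins TMEM67 and TMEM231 rose by 1.71 ± 0.08 and, from an HGF level of 3.69 below the filter, 2.40 ± 0.14, and PKD2, the ciliary channel polycystin-2, by 1.22 ± 0.18. CEP290 (0.00 ± 0.19), PKD1 (-0.01 ± 0.06) and PKHD1 (0.01 ± 0.08) did not pass, the last 2 at levels of 4.44 and 5.57.

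**Figure D4:**
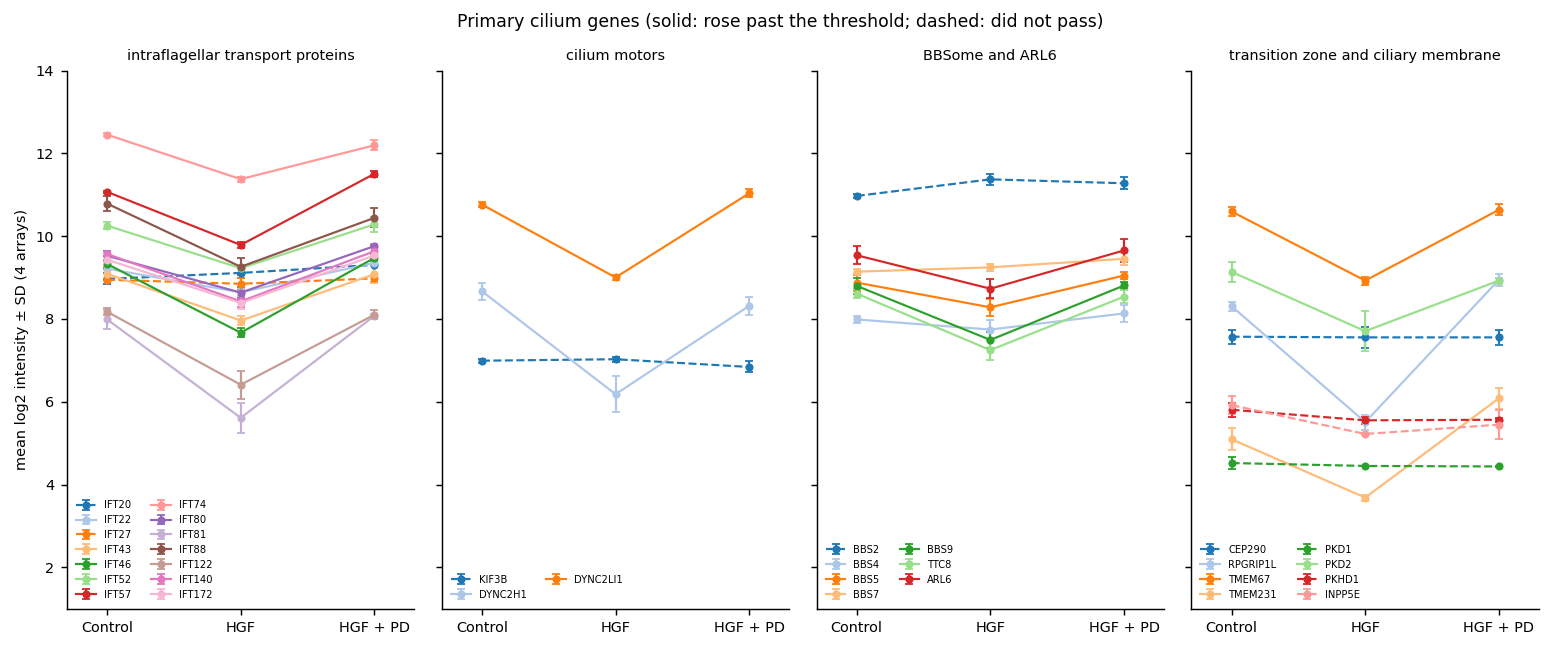
Group mean log2 intensity of the 32 measured cilium genes in Control, HGF and HGF + PD, 1 line per gene in 4 panels by role; error bars are the SD of 4 arrays. In most lines the HGF mean is the lowest point and the HGF + PD mean lies close to Control, and 24 of 32 rises from HGF to HGF + PD passed the threshold.

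Single apical and transport genes of the tubule rose widely, while 35.3% of the brush border list and 40% of the distal transport list rose beside 29.9% of all genes. Of 17 brush border genes 6 rose, 5 by at least 1, with a median of -0.01, and 1 fell, CDHR5 (-0.18 ± 0.07), a call lost in 9 alternatives. PDZK1, a scaffold that holds transporters under the apical membrane, read 4.85, 4.84, 7.08 and 5.33 on the HGF arrays and 13.44, 13.49, 13.41 and 13.50 on the HGF + PD arrays. That rise of 7.93 ± 0.35 (244-fold, adjusted p = 1.52e-10) was the widest of any gene with a symbol, and it starts from HGF arrays that varied by over 2 units. Part of those arrays lay near the filter level, so the fold depends on the background estimate. GGT1, the brush border enzyme that splits glutathione, read 9.87, 9.78, 10.30 and 10.15 with HGF and 11.64, 11.74, 11.64 and 11.69 with PD, and rose by 1.65 ± 0.09. USH1C, the scaffold harmonin of microvillar tips, rose by 1.96 ± 0.11, and SLC9A3R1, a partner of ezrin, by 0.60 ± 0.10. MME, the peptidase neprilysin, read 8.32, 8.93, 8.43 and 8.97 with PD and lay below the filter with HGF (3.47). Of 15 genes of distal transport 6 rose and 4 fell. FXYD2 and ATP1B1, subunits of the sodium pump, rose by 1.35 ± 0.11 and 0.60 ± 0.08, and SGK1, a kinase that raises sodium uptake, by 0.77 ± 0.11. ATP6V1B1, a proton pump subunit of intercalated cells, fell by 1.56 ± 0.09. Of the kidney transcription factors 9 of 25 rose and 6 fell, a split that turns to 8 rises and 9 falls with median centring. HNF4G and TFAP2B rose by 1.35 ± 0.14 and 1.44 ± 0.17, and the glucocorticoid receptor NR3C1 read 11.44, 11.34, 11.13 and 11.21 with HGF and 8.98, 8.34, 8.15 and 8.05 with PD, a fall of 2.90 ± 0.16.

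Genes of drug and antioxidant metabolism rose more often than they fell. CYP1B1, a cytochrome under the aryl hydrocarbon receptor, read 12.08, 12.20, 12.27 and 12.15 on the HGF arrays and 14.40, 14.64, 14.50 and 14.23 on the HGF + PD arrays. It rose by 2.27 ± 0.10 (4.81-fold, adjusted p = 1.76e-10) and lay 1.83 ± 0.10 above Control. TIPARP, a further target of that receptor, read 11.31, 11.22, 11.37 and 11.37 with HGF and 12.61, 12.72, 12.66 and 12.58 with PD, a rise of 1.32 ± 0.06, also above Control (10.61). The receptor AHR itself did not pass (0.02 ± 0.06, 95% interval -0.12 to 0.16). SULT1A1, a sulfotransferase, and the epoxide hydrolase EPHX1 rose by 1.79 ± 0.05 and 1.67 ± 0.08, while the drug efflux pump ABCB1 fell by 2.14 ± 0.10 to below Control (8.82 in Control, 7.61 with PD). The list as a whole had 7 of 15 higher and 2 lower.

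In the NRF2 and glutathione list 12 of 20 rose and 2 fell (median 0.24), the falls being 4 with median centring. The glutathione transferases GSTA4 and MGST2 rose by 1.47 ± 0.05 and 1.16 ± 0.08, and GCLC, which starts glutathione synthesis, by 0.79 ± 0.10. MGST1, a microsomal transferase, read 2.94, 3.75, 3.75 and 3.23 with HGF and 9.30, 8.74, 9.40 and 9.07 with PD. It lay below the filter on the HGF arrays and at 6.03 ± 0.46 in Control, so PD took it above both. NQO1, a textbook NRF2 target, read 13.03, 13.22, 13.21 and 13.22 on the HGF arrays and 13.19, 13.49, 13.48 and 13.26 on the HGF + PD arrays. Those groups overlapped (0.19 ± 0.10, adjusted p = 0.148), both far above the Control level of 10.73 ± 0.24.

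Genes of nutrient uptake and glycolysis fell. Of 12 transporters 9 fell and 2 rose (median -1.21). SLC2A1, the glucose transporter GLUT1, read 14.83, 14.78, 14.73 and 14.93 on the HGF arrays and 12.74, 12.81, 12.40 and 12.78 on the HGF + PD arrays. The arrays with PD were low without overlap, by 2.14 ± 0.08 (4.40-fold, adjusted p = 4.45e-11). SLC38A2, SLC7A5 and SLC1A5, carriers of neutral amino acids, fell by 1.77 ± 0.14, 1.38 ± 0.12 and 1.10 ± 0.18, and the lactate exporter SLC16A3 by 1.64 ± 0.10. Of 25 glycolysis and hypoxia genes 20 fell and 2 rose, with PFKP, a phosphofructokinase, at -2.42 ± 0.08 and EGLN3, an oxygen sensor, at -2.93 ± 0.23. NDRG1 fell by 2.69 ± 0.11, to below Control. Genes of ATF4 and the unfolded protein response fell in 21 of 30 and rose in 4, among them the one-carbon enzyme MTHFD2 (-2.74 ± 0.08) and the stress factor DDIT3 (-2.56 ± 0.17). The tRNA synthetases fell in 11 of 18 and rose in 5 (3 with median centring), with WARS1 at -1.46 ± 0.06.

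Cholesterol synthesis fell with PD but kept most of its members above untreated cells. Of 19 genes 14 fell and 0 rose (median -0.59). Against Control, 14 of the 19 were higher and 0 lower with PD (median 0.65), beside 21.8% higher and 13.5% lower of all genes. INSIG1, which holds the sterol-regulated factors back, read 11.97, 12.16, 11.97 and 12.04 on the HGF arrays and 10.33, 10.56, 10.52 and 10.51 on the HGF + PD arrays, and averaged 9.16 ± 0.14 (SD) in Control. The arrays with PD lay between the other 2 groups without overlap, 1.56 ± 0.08 below HGF and 1.32 ± 0.08 above Control. FDPS, farnesyl diphosphate synthase, was likewise at 9.56 in Control, 12.16 with HGF and 11.26 with PD. In fatty acid synthesis 7 of 15 fell and 4 rose, with ELOVL1, an elongase, at -1.93 ± 0.07.

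Mitochondrial genes were higher by small amounts. Of 28 respiratory chain and TCA cycle genes 21 rose, 1 of them by at least 1, and 3 fell (median 0.34). NDUFB5, a subunit of complex I, read 11.19, 10.91, 11.19 and 11.12 on the HGF arrays and 12.97, 12.70, 12.86 and 12.82 on the HGF + PD arrays. It rose by 1.74 ± 0.07 (3.33-fold, adjusted p = 2.49e-11) without overlap and ended above Control (12.23). UQCRFS1, the iron-sulfur protein of complex III, rose by 0.88 ± 0.05. The 3 genes that fell, IDH2 (-0.96 ± 0.05), CS (-0.46 ± 0.07) and IDH3A (-0.34 ± 0.05, with 0.23 on 1 of 2 other probe sets, past the threshold), encode isocitrate dehydrogenases and citrate synthase. Fatty acid oxidation and peroxisome genes rose in 13 of 21 and fell in 1. SCP2, a peroxisomal thiolase and lipid carrier, rose by 1.28 ± 0.06 and ETFB, which passes electrons from fatty acid oxidation, by 1.15 ± 0.06, while the gene that fell was the acyl-CoA synthetase ACSL1 (-1.32 ± 0.09). Cytosolic ribosomal proteins rose in 21 of 27 by a median of 0.11, and with median centring 1 of them rose, so no direction is given for that family. Ribosome biogenesis genes rose in 7 and fell in 10 of 25, with 4 rises and 13 falls under median centring and 3 rises where most probe sets of a gene had to pass.

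Lysosome and autophagy genes rose in 62.5%, and proteasome and chaperone genes in 54.1%, beside 29.9% of all genes. In the lysosome and autophagy list 20 of 32 rose and 6 fell (median 0.40). Beside LIPA, the protective protein CTSA rose by 1.68 ± 0.16, the membrane proteins LAMP1 and LAMP2 by 0.59 ± 0.04 and 0.67 ± 0.06 (0.01 on 1 of 2 other probe sets, not past the threshold), and GABARAPL1, which coats autophagosomes, by 1.40 ± 0.04. NPC1, which exports cholesterol from lysosomes, read 8.92, 9.15, 9.37 and 9.52 with HGF and 7.42, 7.55, 7.62 and 7.66 with PD, a fall of 1.68 ± 0.12, whereas its partner NPC2 rose by 0.90 ± 0.05. The protease CTSD fell by 0.98 ± 0.06 and the autophagy receptor SQSTM1 by 1.51 ± 0.15. Proteasome and chaperone genes rose in 20 of 37 and fell in 7, led by the proteasome ATPases PSMC4 (1.03 ± 0.06) and PSMC5 (0.95 ± 0.06). DNAJB1, a heat shock co-chaperone, fell by 1.13 ± 0.08.

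Regulators of the G1 phase fell more often than they rose, and genes of S phase and mitosis stayed above untreated cells. CDKN1A, the CDK inhibitor p21, read 12.70, 12.61, 12.73 and 12.99 on the HGF arrays and 7.25, 7.20, 6.60 and 7.29 on the HGF + PD arrays. The arrays with PD were low by 5.67 ± 0.16 or 51.1-fold (adjusted p = 1.77e-12), at the Control level of 7.04 ± 0.26. CDKN2B, the inhibitor p15, fell from 6.41 to a level of 2.32, below the filter. CCND2, cyclin D2, read 11.79, 11.96, 11.86 and 11.90 with HGF and 9.82, 9.80, 9.89 and 10.00 with PD and fell by 2.00 ± 0.07, and BTG2, an antiproliferative factor, by 1.84 ± 0.12. CDKN2C and CDKN2D, inhibitors of CDK4 and CDK6, rose by 1.44 ± 0.13 and 0.73 ± 0.14 (0.17 on another probe set, not past the threshold), and the pocket protein RBL2 by 0.61 ± 0.06 (0.02 on 1 of 3 other probe sets, not past the threshold). Over this list 9 of 17 fell and 3 rose.

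In DNA replication and S phase 15 of 35 rose, 6 fell and 14 did not pass, with a median of 0.16. PCNA, the sliding clamp, read 10.73, 11.09, 10.91 and 10.74 on the HGF arrays and 11.66, 11.61, 11.63 and 11.71 on the HGF + PD arrays, and 10.01, 9.96, 9.88 and 9.92 in Control. It rose by 0.78 ± 0.07 over HGF (adjusted p = 1.82e-07), from a level already above Control. Of 6 measured subunits of the replicative MCM helicase 3 rose and 0 fell (median 0.22), and the widest rise was that of MCM5 (0.81 ± 0.10). CDT1 and CDC6, which help load this helicase onto DNA, fell (-0.93 ± 0.07 and -0.81 ± 0.16), as did CDC45, which activates it (-1.16 ± 0.14). Against Control, 33 of 35 were higher and 0 lower with PD (median 1.06), beside 21.8% higher and 13.5% lower of all genes.

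Of 29 mitosis genes 6 rose, 8 fell and 15 did not pass (median -0.06). Against Control 26 were higher and 0 lower, with a median of 2.00, beside 21.8% higher and 13.5% lower of all genes. CCNA2, cyclin A, read 9.45, 9.96, 9.46 and 9.52 on the HGF arrays and 9.46, 9.52, 9.84 and 9.84 on the HGF + PD arrays, and 7.09, 6.95, 6.87 and 6.87 in Control. HGF and PD arrays overlapped (0.07 ± 0.12, adjusted p = 0.674, 95% interval -0.20 to 0.33), both more than 2 units above Control. CDK1 differed by 0.12 ± 0.08 (95% interval -0.04 to 0.28) and lay 1.73 ± 0.08 above Control. CCNB2, cyclin B, rose by 0.69 ± 0.14, and BUB1B, a spindle checkpoint kinase, by 0.54 ± 0.10, while the kinesin KIF23 of the central spindle fell by 0.51 ± 0.09. The wide falls of the list were CDC25B, a phosphatase that activates CDK1 (-4.51 ± 0.20, to 4.29, near the filter level), and ANLN, a cytokinesis scaffold (-2.52 ± 0.24).

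**Figure D5:**
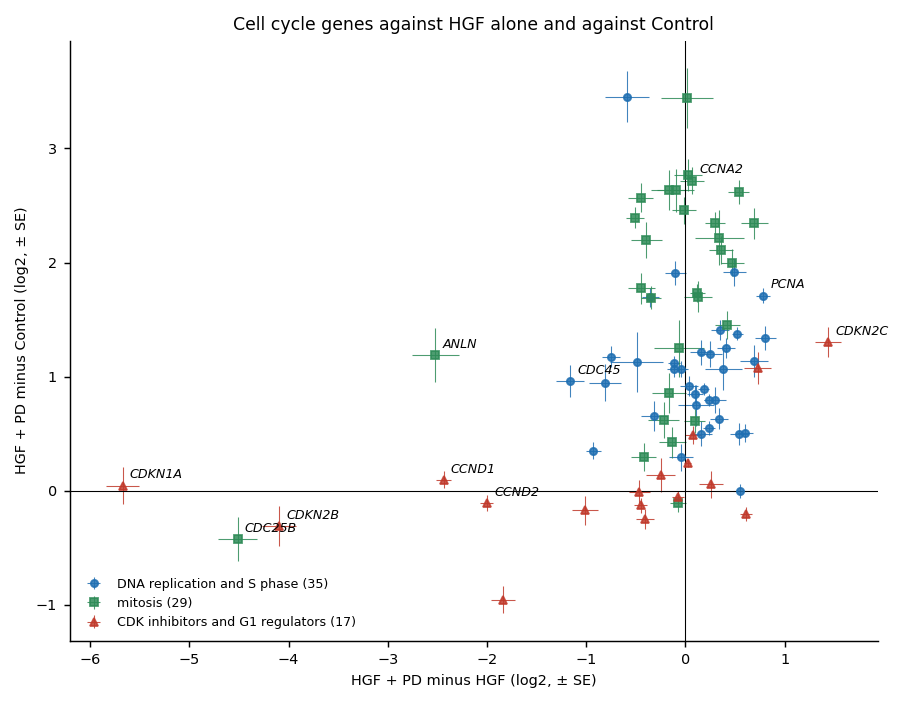
Change of each measured member of 3 cell cycle lists on the log2 scale, with HGF + PD minus Control on the vertical axis and HGF + PD minus HGF on the horizontal axis; both axes share the HGF + PD arrays. S phase and mitosis genes gather near 0 on the horizontal axis and above 0 on the vertical one, while CDKN1A, CDKN2B, CCND1, CCND2 and CDC25B lie far left.

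Survival, calcium-binding and signalling genes completed the picture. Of 20 apoptosis regulators 10 fell and 3 rose. The anti-apoptotic BCL2A1 read 12.73, 12.66, 12.69 and 12.78 on the HGF arrays and 9.88, 9.23, 9.42 and 9.85 on the HGF + PD arrays. It fell by 3.12 ± 0.13 (8.70-fold, adjusted p = 5.03e-11) without overlap, and the caspase inhibitors BIRC3 and CFLAR by 1.56 ± 0.17 and 1.25 ± 0.08. BCL2, in contrast, rose by 0.80 ± 0.17, as did the pro-apoptotic BAD by 0.91 ± 0.08. S100 proteins and annexins fell in 16 of 22 and rose in 3, with S100A14 at -3.17 ± 0.08 and ANXA10 at -2.62 ± 0.08. PDE1A, a calmodulin-dependent phosphodiesterase, rose by 3.78 ± 0.11 and PRKAR2B, a regulatory subunit of protein kinase A, by 3.69 ± 0.20, to above its Control level (7.78 in Control, 9.58 with PD). Of the Hippo list 10 of 19 fell and 3 rose, with TEAD4, the DNA-binding partner of YAP, at -2.04 ± 0.15 and WWC1, the scaffold KIBRA, at 1.51 ± 0.04.

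Genes tied to mesenchymal transition fell in 8 of 13 and rose in 1, with a median of -0.95, and 6 of the falls were of at least 1. Beside SNAI2, S100A4, a calcium-binding protein of motile cells, read 12.53, 12.66, 12.49 and 12.65 with HGF and 10.90, 10.72, 10.86 and 10.95 with PD and fell by 1.73 ± 0.09 without overlap. CD44, the hyaluronan receptor, fell by 1.57 ± 0.10, FN1, fibronectin, by 1.48 ± 0.14 and VIM, vimentin, by 0.57 ± 0.04. CDH2, N-cadherin, averaged 7.43 ± 0.38 (SD) with HGF and lay below the filter on every array with PD (3.61, 3.05, 3.03 and 3.14). TGFBI was the gene that rose.

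Interferon genes rose in 7 and fell in 9 of 20, with the antiviral OAS2 at -2.45 ± 0.10 and the immunoproteasome subunit PSMB9 at 1.54 ± 0.09. Exocyst and Rab genes rose in 7 and fell in 13 of 35 (3 and 17 with median centring), with the exocyst subunit EXOC5 at -1.26 ± 0.11 and RAB32, of lysosome-related organelles, at 2.06 ± 0.14. Semaphorins, ephrins and guidance genes rose in 3 and fell in 11 of 28, cytokine and prostaglandin genes in 4 and 7 of 22, and G protein and cyclic nucleotide genes in 6 and 8 of 26.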

How the data were processed

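RNA of 15 MDCK cultures was measured on 15 one-colour Affymetrix canine arrays, and groups were taken from the sample titles. The deposited values are probe set intensities on a linear scale that the authors made with GCRMA, per the submitters' processing notes, which corrects background, normalizes between arrays and summarises probes; its version and options are not given in the sources used here. GCRMA flattens dim values, so folds of genes near the filter level are less certain than those of bright genes, and precision is limited by how few arrays each group has. No further normalization was applied. After taking log2, 111 control probe sets were removed, and probe sets of at least 4 on 3 arrays or more were kept. limma 3.58.1 in R 4.3.3 was fitted to all 15 arrays with 1 mean per group and a variance trend, since the groups then share an estimate of the spread. The same model was also run on simulated arrays with independent noise, and the outcome is not given here.

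Gene symbols came from the platform annotation. Of the probe sets kept, 18490 had 1 symbol, 311 had several and 6103 had none, and only the first kind was named. Of 1384 list genes, 1218 were annotated and 1017 measured. The text draws on a naming rule: the 12 largest changes each way without overlap, agreed by all probe sets of the gene and with a lower-group mean of at least 6; the 3 largest changes of each list with a lower-group mean of at least 5; and 20 genes set in advance, of which 2 had no probe set. Genes outside it were chosen after their values were seen, and the members, lists and tests were chosen with earlier results of these data known. For single measures per array, exact permutation tests (two-sided) were used. Alternatives covered the arrays in the fit, normalization, filter, variance model, array weights, an offset of 16, the probe set per gene, a replicate block and leaving out each array. The alternative on the probe set per gene was run for list counts only. No promoter sequences were used here, so the planned motif search was not run.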

Additional observations from a re-analysis of the deposited data

Results flagged for a closer look

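In 37 of 504 groups of 4 arrays, over the genes named above, 1 array lay far from the other 3 by Dixon's criterion; chance alone does this in about 1 group in 20. Levels are log2 intensities. HGF replicate 2 held BUB1B at 8.36 (others 7.91 to 7.96), CCNA2 at 9.96 (others 9.45 to 9.52), DSG3 at 9.80 (others 9.43 to 9.48) and MARVELD2 at 6.22 (others 5.83 to 5.88), above the other 3 arrays. HGF replicate 3 held MAP2K2 at 7.97 (others 7.74 to 7.76) and S100A14 at 13.54 (others 13.52 to 13.52), above the other 3 arrays. HGF replicate 4 held TMEM231 at 3.80 (others 3.64 to 3.66), above the other 3 arrays. HGF + PD replicate 2 held CLDN2 at 10.05 (others 9.41 to 9.51), NDRG1 at 8.09 (others 7.74 to 7.77), NTN4 at 8.69 (others 8.20 to 8.28) and SCP2 at 13.71 (others 13.52 to 13.55), above the other 3 arrays. HGF + PD replicate 4 held ANLN at 5.47 (others 4.81 to 4.84), DYNC2H1 at 8.63 (others 8.20 to 8.22), ETV5 at 4.93 (others 4.64 to 4.69) and MET at 10.96 (others 10.76 to 10.78), above the other 3 arrays. HGF replicate 1 held CDC25B at 8.17 (others 8.95 to 9.06), DSP at 10.27 (others 10.51 to 10.55), ITGB6 at 12.18 (others 12.37 to 12.38), NQO1 at 13.03 (others 13.21 to 13.22) and SQSTM1 at 9.69 (others 9.99 to 10.04), below the other 3 arrays. HGF replicate 2 held CDKN2B at 5.80 (others 6.56 to 6.68), DNAJB1 at 10.18 (others 10.33 to 10.36) and SNAI2 at 13.68 (others 13.90 to 13.93), below the other 3 arrays. HGF replicate 3 held BAD at 6.52 (others 6.73 to 6.73), CD3E at 5.77 (others 5.93 to 5.93) and MME at 2.55 (others 3.78 to 3.78), below the other 3 arrays. HGF replicate 4 held CLDN10 at 3.08 (others 3.16 to 3.18), below the other 3 arrays. HGF + PD replicate 1 held DSP at 9.10 (others 9.26 to 9.30), ELOVL1 at 9.86 (others 10.06 to 10.09) and LAMB3 at 9.76 (others 9.97 to 10.00), below the other 3 arrays. HGF + PD replicate 2 held CDKN2C at 11.06 (others 11.46 to 11.53), below the other 3 arrays. HGF + PD replicate 3 held CDKN1A at 6.60 (others 7.20 to 7.29), DENND2C at 6.13 (others 6.27 to 6.29), PKHD1 at 5.49 (others 5.58 to 5.60) and SLC2A1 at 12.40 (others 12.74 to 12.81), below the other 3 arrays. HGF + PD replicate 4 held CD3E at 5.87 (others 5.92 to 5.93) and THY1 at 5.41 (others 5.62 to 5.66), below the other 3 arrays. Of these genes, every one that was past the threshold stayed past it, in the same direction, with that array left out.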

How the results depend on the processing

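With 1 array left out at a time, the probe sets called numbered 12955 to 13363 (13798 with all arrays), those higher 7044 to 7403 and those lower 5831 to 6079; those changed by at least 1 numbered 1753 to 1889 higher and 1503 to 1638 lower. Over the alternatives run, the calls went from 12894 with the filter at 6 to 14501 with no filter. The share of calls that were higher was 54.7%, and 51.0% with quantile normalization, 50.3% with no filter and 44.8% with median centring, which moved the median change from -0.01 to -0.09. Of 252 genes named, 230 passed, and all of them except CDHR5 and ADAM10 passed in the same direction in every one of the 17 alternatives in which they were fitted. These alternatives kept the brightest probe set of each gene, so they do not cover the other probe sets that differed, given above. IFT20 (0.19 with the replicate block, 0.31 without HGF + PD replicate 2), KIF3B and SPRED1 passed in 2 alternatives each, and CD14 in 1. The ADAM10 change was 0.05 with median centring. With log2 of the intensity plus 16, changes of 5 dim genes shrank by over 1.5 times, CDKN2B to -2.28, FOSL1 to -1.38, INHBA to -2.02, CD68 to -2.01 and TMEM231 to 1.54. Of 102 counts of list members rising or falling, 17, in 16 lists, moved by over 1.5 times in some alternative. With median centring, rises went from 21 to 1 for ribosomal proteins, 7 to 4 for ribosome biogenesis, 7 to 3 for exocyst and Rab genes, 5 to 3 for tRNA synthetases and 1 to 0 for matrix proteases, and falls from 7 to 11 for Wnt, 2 to 4 for NRF2, 1 to 2 for fatty acid oxidation and 0 to 1 for the cilium. Quantile normalization gave the same Wnt, protease, fatty acid oxidation and cilium counts. Where most probe sets of a gene had to pass, basement membrane falls went from 8 to 5, rises of ribosome biogenesis from 7 to 3, of Wnt from 5 to 3, and of JNK and p38 and of glycolysis from 2 to 1. Fitting only the 8 arrays gave 0 protease rises and 2 fibroblast marker falls in place of 1 each. The filter at 6 left 0 falls of fibroblast and of leukocyte markers in place of 1. The brush border fall was lost with only the 8 arrays, no filter, array weights, or without HGF replicate 1, 2 or 3 or HGF + PD replicate 1, 3 or 4. Leaving out HGF replicate 4 or HGF + PD replicate 1 lost the protease rise, leaving out HGF replicate 2 took glycolysis rises from 2 to 1, leaving out HGF + PD replicate 3 took cholesterol rises from 0 to 1, and leaving out HGF replicate 4 took leukocyte marker falls from 1 to 2. For these counts, the cause was not tested. The replicate numbers were not taken to pair the cultures, since no label ties the numbers to a shared day. Deviations of same-numbered HGF and HGF + PD arrays correlated at 0.41, -0.06, 0.13 and 0.14. Of the 8 arrays, 5 correlated best with their own number, so partial pairing was not excluded. The replicate block gave 13850 calls, 7587 higher and 6263 lower. The series has no group labelled as PD alone or as a vehicle and holds 1 dose of PD and 1 time, and dim genes have uncertain folds.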
